A study of Homo sapiens with 24 samples.

Results

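The genes described here are 33 genes of cholesterol and fatty acid synthesis, taken as a named list and matched by symbol to the Ensembl gene identifiers of 24 tables of read counts. All 33 were found among the 62703 identifiers, and 31 of them passed the filter on low counts, which 16600 genes passed in all. EBP, which isomerises a sterol double bond late in the pathway, reached no more than 2.59 normalized counts in any library, and FADS1, the Δ5 fatty acid desaturase, was listed at 0 in all 24, so neither was tested. The list holds 18 genes of sterol synthesis (6 enzymes of the mevalonate pathway, 11 enzymes acting from squalene synthesis onward, and ACAT2, which makes acetoacetyl-CoA), 4 genes of the SREBP transcription factors and their handling, 3 genes of sterol transport and 8 genes of fatty acid synthesis, desaturation and lipid assembly.

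T/C-28a2 is an immortalised human chondrocyte line. Its RNA-seq was compared in 6 groups of 4 libraries. WT Ctr cells were untransfected and kept in isotonic media, and WT Sor cells were untransfected and spent 7 days in media made hyperosmotic with sorbitol at 100 mM. WNK2 trans Ctr and WNK2 trans Sor cells were the same wild-type line transfected for 48 hours with a plasmid that encodes WNK2. WNK2 is a kinase of the osmotic stress response. After transfection WNK2 trans Ctr cells were kept in isotonic media and WNK2 trans Sor cells for 7 days in 100 mM sorbitol. WNK2 null Ctr and WNK2 null Sor cells, named WNK2 knockout in the labels, lack exon 2 of WNK2 after CRISPR/Cas9 editing and were not transfected. WNK2 null Ctr cells were kept in isotonic media and WNK2 null Sor cells for 7 days in 100 mM sorbitol. Edited cells were grown as clonal lines, so that the deletion and other differences of a clone cannot be told apart, and the transfected groups have no empty-vector control, so that WNK2 and the transfection itself cannot be told apart. Libraries were made from poly(A) RNA of whole cultures, in which fewer cells of a type and less RNA per cell cannot be told apart.

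Total counts per library ran from 14153002 to 25664619. WNK2 itself did not follow the labels in every group. Its mean was 2520.0 ± 901 normalized counts in WT Ctr (SD, n = 4, as for the means that follow) and 252 ± 52.8 in WNK2 trans Ctr, so the libraries labelled as transfected in isotonic media held fewer WNK2 reads than the untransfected ones. In sorbitol the mean was 303 ± 19.0 in WT Sor and 3033 ± 707 in WNK2 trans Sor. WNK2 null Ctr had 407 ± 13.9 and WNK2 null Sor 359 ± 46.1, counted over the whole gene, so that WT Sor and WNK2 trans Ctr both had lower means than the WNK2 null groups. All groups are therefore called by their labels, and the main counts and values that used WT Ctr or WNK2 trans Ctr are also given with the other of these groups as comparator. WNK2 null Sor was likewise set against WNK2 trans Sor, an alternative added after the data were seen. Replicates were less alike in WT Ctr, WNK2 trans Ctr and WNK2 trans Sor, where the median coefficient of variation of the tested genes of the list was 16.8%, 11.4% and 16.2%, than in WT Sor, WNK2 null Ctr and WNK2 null Sor, where it was 4.19%, 7.05% and 9.41%. WT Ctr replicate 2 and WNK2 trans Sor replicate 1 lay farthest from their groups over all genes. Of 11 cartilage markers 7 passed the filter, and SOX9, which defines the lineage, was listed at 0 in all 24 libraries. The paper measured SOX9 by qPCR in T/C-28a2 cells, while its RNA-seq did not detect it. The sterol and lipid genes OSBP, LPCAT3 and HSD17B12, outside the list, were also at 0 in all 24 libraries. Whether a count at or near 0, as for SOX9, FADS1 and EBP, reflects absent RNA or the counting was not tested. The summed normalized count of the 11 was 349 to 389 in WNK2 null Ctr and 384 to 451 in WNK2 null Sor, below every other library (1625 to 1927 in WT Ctr, 1172 to 1519.7 in WNK2 trans Ctr, 1508 to 1628 in WT Sor and 1981 to 2874 in WNK2 trans Sor), and of the 7 tested 4 were called lower and 0 higher in WNK2 null Ctr against WT Ctr (42.1% of all genes called) and 5 lower and 0 higher in WNK2 null Sor against WT Sor (46.3%). In WNK2 trans Sor against WT Sor 5 were lower and 1 higher (31.7%), and against WNK2 trans Ctr 5 were lower and 2 higher (48%). The gene with the most reads of the 7, HAPLN1, which links proteoglycan to hyaluronan, had a log2 fold change of 0.82 in WNK2 trans Sor against WT Sor, where the median of the 7 was −1.83. Of 12 markers of other cell types 6 passed, MYOD1 and ADIPOQ were at 0 in all libraries, and the sum, which was mostly the keratin gene KRT8, ranged between 11306 and 12206 in WT Sor, 7849 and 12389.7 in WT Ctr, 9476 and 12884 in WNK2 trans Ctr, 8794 and 15082 in WNK2 trans Sor, 12246 and 15413 in WNK2 null Ctr, and 10510.1 and 12887 in WNK2 null Sor. That sum says little about markers with fewer reads. Of the 6 tested, 2 were called higher and 2 lower in WNK2 null Ctr against WT Ctr. For WNK2 null Sor against WT Sor 0 were higher and 2 lower, and for WNK2 trans Sor against WT Sor 1 and 2. WNK2 trans Sor against WNK2 trans Ctr had 2 higher and 2 lower, with log2 fold changes from −1.96 to 5.46. CDH5 libraries of WNK2 trans Sor held 951, 801, 986 and 948 normalized counts, those of WNK2 trans Ctr 26.1, 17.2, 19.1 and 21.8. The part of these differences in the values of the sterol and fatty acid genes was not tested.

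Cells make cholesterol from acetyl-CoA through mevalonate, farnesyl diphosphate, squalene and lanosterol, and make long-chain fatty acids from acetyl-CoA through malonyl-CoA. The SREBP transcription factors, encoded by SREBF1 and SREBF2, switch on the genes of both branches. They are made as membrane proteins of the endoplasmic reticulum, where SCAP escorts them to the Golgi for cleavage when sterols are scarce and INSIG1 holds the SCAP-SREBP complex back when sterols are plentiful. A different set of genes, among them ABCA1 and MYLIP, is switched on by LXR nuclear receptors, which sense oxysterols, and SREBF1 and SCD respond to both systems. Adult cartilage has no blood vessels, so its cells take up lipids through the matrix or make their own.

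Promoter sequences of 29 of the 33 genes were found in a RefSeq table (GRCh38.p14) that gives 250 bases before and 50 bases after each start. Of the others, ACAT2, FASN, SQLE and FDFT1 are named only. The sterol regulatory element was searched as TCACNCCAC, the CCAAT box (the NF-Y motif) as CCAAT, the E-box as CACGTG and the GC box (the SP1 motif) as GGGCGG, each on both strands. A CCAAT box was found in 18 of the 29 promoters (62.1%) and in 34.6% of all 35116 promoters, and a GC box in 27 (93.1%) and in 45.0%. The CCAAT box was present in 12 of the 15 matched sterol synthesis genes and in 2 of the 7 matched fatty acid genes. An E-box, which reads the same on both strands, was found in 5 promoters (17.2%; 7.26% of all). The sterol element as spelled here was found in SREBF2 alone (3.45%; 1.13% of all), from position −133 to −125 relative to the start. A few promoters are shown because the main results turn on them: SREBF2 and INSIG1 of the SREBP system, HSD17B7 and MSMO1 of sterol synthesis and SCD of fatty acid desaturation. Bases that lie after the earliest start in GENCODE 29 were left out, the genes lie on the plus strand, and capitals mark matches to the sterol element, the CCAAT box (CCAAT or its complement ATTGG) and the E-box.
SREBF2 (chr22:41832855-41833078): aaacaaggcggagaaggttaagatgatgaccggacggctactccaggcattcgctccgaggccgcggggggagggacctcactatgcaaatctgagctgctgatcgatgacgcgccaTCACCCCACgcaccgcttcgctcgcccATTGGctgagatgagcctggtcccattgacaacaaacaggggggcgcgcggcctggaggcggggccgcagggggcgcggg
INSIG1 (chr7:155297628-155297775): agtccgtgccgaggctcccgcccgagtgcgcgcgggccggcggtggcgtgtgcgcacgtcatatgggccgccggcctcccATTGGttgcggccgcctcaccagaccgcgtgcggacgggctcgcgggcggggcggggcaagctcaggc
HSD17B7 (chr1:162790452-162790701): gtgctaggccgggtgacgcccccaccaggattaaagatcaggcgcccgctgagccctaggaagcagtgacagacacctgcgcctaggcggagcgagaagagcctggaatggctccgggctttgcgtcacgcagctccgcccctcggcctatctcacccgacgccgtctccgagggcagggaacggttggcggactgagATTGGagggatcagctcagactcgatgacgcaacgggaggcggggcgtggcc
MSMO1 (chr4:165327419-165327622): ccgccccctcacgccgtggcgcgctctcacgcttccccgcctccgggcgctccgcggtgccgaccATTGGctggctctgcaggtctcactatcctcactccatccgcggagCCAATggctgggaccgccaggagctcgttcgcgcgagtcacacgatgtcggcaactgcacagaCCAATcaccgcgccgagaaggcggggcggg
SCD (chr10:100346983-100347123): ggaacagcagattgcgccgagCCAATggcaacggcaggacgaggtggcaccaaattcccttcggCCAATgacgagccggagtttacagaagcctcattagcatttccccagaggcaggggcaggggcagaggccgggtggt
In the stretches shown, SREBF2 holds the sterol element upstream of its 1 CCAAT box, SCD holds 2 CCAAT boxes, MSMO1 holds 3, and INSIG1 and HSD17B7 hold 1 each. A match is a run of letters, and binding was not measured.

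The genes differed widely in level. By FPKM, which corrects counts for exon length and total counts (mean of 24 libraries), the stearoyl-CoA desaturase SCD was the highest at 227, followed by fatty acid synthase, FASN, at 82.2, INSIG1 at 54.1, squalene synthase, FDFT1, at 49.3 and the last enzyme of cholesterol synthesis measured here, DHCR7, at 43.4. The lowest tested genes were the isopentenyl diphosphate isomerase IDI1 at 0.522 and the lanosterol demethylase CYP51A1 at 0.119, CYP51A1 having 1.33 to 18.0 normalized counts per library and standard errors (SE) of 0.54 to 0.86 on the log2 scale, so that only very large differences were detectable. In GENCODE 29, 83.2% of the CYP51A1 exon bases and 52.3% of those of ACAT2 lie under exons of other genes on either strand, and how the authors' counting treated such reads and strand is not given in the sources used here. The share of all counts that fell on the 33 genes was 0.558% ± 0.0467 (SD, n = 4) in WT Ctr, 0.630% ± 0.0137 in WT Sor, 0.469% ± 0.0309 in WNK2 trans Ctr, 0.686% ± 0.0375 in WNK2 trans Sor, 0.353% ± 0.0115 in WNK2 null Ctr and 0.307% ± 0.0118 in WNK2 null Sor. This share is weighted to the genes with most reads, SCD and FASN, whose means over all libraries were 22318 and 14129 normalized counts. It is therefore not a level of the list as a whole.

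**Figure D1:**
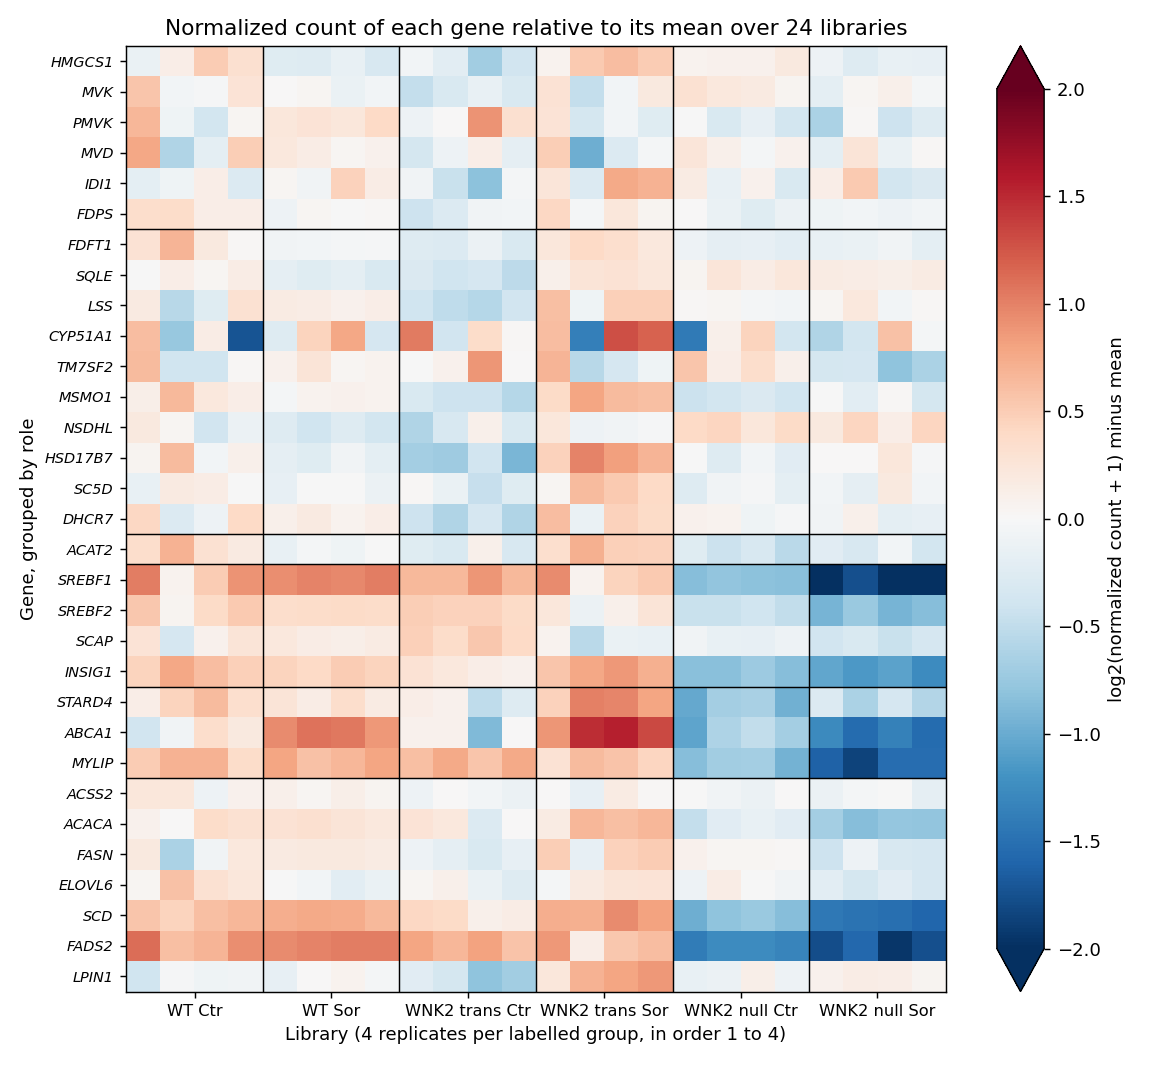
Rows are the 31 tested genes in order of role (mevalonate pathway, squalene onward, ACAT2, SREBP factors, sterol transport, fatty acid branch, set apart by lines), columns are the 24 libraries, and colour is log2(normalized count + 1) minus the gene's mean over all libraries, with values beyond 2 in the end colours. SREBF1, SREBF2, INSIG1, MYLIP, SCD and FADS2 are blue in all 8 WNK2 null libraries, and many sterol synthesis genes are blue in WNK2 trans Ctr and red in WNK2 trans Sor.

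Which genes differed between WNK2 null and wild-type cells was asked in isotonic media and in sorbitol. The SREBP factors, the sterol transport genes and the desaturases were lower in WNK2 null cells in both media, while most enzymes of sterol synthesis did not pass the test. In sorbitol 15 of the 31 tested genes differed between WNK2 null Sor and WT Sor, 13 lower and 2 higher, against 46.3% of all 16600 genes tested. Against WNK2 trans Sor 19 differed, all lower, against 33.3% of all genes. In isotonic media 15 differed between WNK2 null Ctr and WT Ctr, 14 lower and 1 higher, against 42.1% of all genes, and against WNK2 trans Ctr 19 did, 11 lower and 8 higher, against 47.7%. Against the groups labelled WT the number called was thus close to the share of all genes (48.4% of the list in each medium). Of these calls 13 of 15 were lower in sorbitol and 14 of 15 in isotonic media. In the same comparisons all genes split 22.7% lower to 23.7% higher in sorbitol and 21.5% lower to 20.7% higher in isotonic media. Against WNK2 trans Sor the 19 of 31 called lay above the 33.3% of all genes. In sorbitol SREBF1, SREBF2, INSIG1, STARD4, ABCA1, MYLIP, ACACA, FASN, SCD and FADS2 were called lower against either group. Against either isotonic group 10 genes were called in the same direction: NSDHL was higher, and SREBF1, SREBF2, INSIG1, STARD4, ABCA1, MYLIP, ACACA, SCD and FADS2 were lower.

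SREBF1 (GRCh38, ENSG00000072310, chromosome 17, 17810399 to 17837002) encodes SREBP-1, the form that mainly drives fatty acid genes. Its normalized counts were 7179, 7469, 7286 and 7604 in WT Sor and 942, 1106, 853 and 917 in WNK2 null Sor. Every WNK2 null Sor library lay far below every WT Sor library, a log2 fold change of −2.95 (SE 0.17, edgeR adjusted p = 1.95e-13), and against WNK2 trans Sor it was −2.50. In isotonic media the counts were 7635, 3959, 5363 and 7002 in WT Ctr, 5899.8, 5909, 6892 and 5881 in WNK2 trans Ctr and 2077, 2179.8, 2129 and 2112 in WNK2 null Ctr. Again the WNK2 null libraries did not overlap the others, with −1.50 (SE 0.16, edgeR adjusted p = 3.39e-08) against WT Ctr and −1.53 (SE 0.16, edgeR adjusted p = 1.39e-08) against WNK2 trans Ctr. The 82 tested genes within 5 Mb of SREBF1 had median log2 fold changes of −0.25 in isotonic media and −0.36 in sorbitol, which are smaller falls than its own.

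SREBF2 (GRCh38, ENSG00000198911, chromosome 22, 41833079 to 41907308), whose promoter holds the sterol element shown above, encodes SREBP-2, the form that mainly drives sterol synthesis. Its counts were 6709, 6769, 6812 and 6741 in WT Sor and 2761, 3134, 2755 and 2888 in WNK2 null Sor, with no overlap and a log2 fold change of −1.23 (SE 0.09, edgeR adjusted p = 4.13e-11) (−0.98 against WNK2 trans Sor). They were 7583, 5459, 6796 and 7520.2 in WT Ctr and 3853, 3827, 3953 and 3714 in WNK2 null Ctr, a log2 fold change of −0.83 (SE 0.09, edgeR adjusted p = 5.62e-08) (−0.90 against WNK2 trans Ctr). All WNK2 null libraries lay below all WT libraries of the same medium, and the WT Sor libraries differed little among themselves. SCAP (GRCh38, ENSG00000114650, chromosome 3, 47413694 to 47477126), the escort of both factors, was 3709, 3589, 3507 and 3620.3 in WT Sor and 2467, 2599, 2377 and 2550.1 in WNK2 null Sor, a smaller log2 fold change of −0.53 (SE 0.11, edgeR adjusted p = 0.000334), and −0.20 (SE 0.11, edgeR adjusted p = 0.184) against WNK2 trans Sor did not pass. In isotonic media SCAP had 3909, 2546, 3416 and 3831 in WT Ctr and 3069.9, 2899, 2883 and 2997 in WNK2 null Ctr. These overlapped, and the log2 fold change of −0.21 (SE 0.11, edgeR adjusted p = 0.134) did not pass, while −0.57 (SE 0.11, edgeR adjusted p = 0.000158) against WNK2 trans Ctr did.

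INSIG1 (GRCh38, ENSG00000186480, chromosome 7, 155297776 to 155310235), the sterol-dependent anchor of SCAP and itself a target of SREBPs, was the third most abundant gene of the list per length. It had 4402, 4287, 4627 and 4422 normalized counts in WT Sor and 1588, 1461, 1548 and 1358 in WNK2 null Sor. Isotonic counts were 4442, 5539, 4981 and 4535 in WT Ctr and 1817, 1819.6, 1965 and 1803 in WNK2 null Ctr. The highest WNK2 null library lay far below the lowest WT library in both media, with log2 fold changes of −1.57 (SE 0.08, edgeR adjusted p = 6.2e-14) and −1.40 (SE 0.08, edgeR adjusted p = 1.2e-12). Against WNK2 trans Ctr, with 3971, 3762, 3577 and 3463, the isotonic value was −0.996 (SE 0.08, edgeR adjusted p = 3.01e-10), and against WNK2 trans Sor the value in sorbitol was −1.86.

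Of the transport genes, ABCA1 (GRCh38, ENSG00000165029, chromosome 9, 104781002 to 104928237), which exports cholesterol to lipid-poor apolipoprotein, was lower in both media. It had 5802, 6391, 6249 and 5470.2 normalized counts in WT Sor and 1242, 1030.5, 1175 and 1034 in WNK2 null Sor, against 2318, 2881, 3824 and 3453 in WT Ctr and 1451, 1965, 2139.5 and 1877 in WNK2 null Ctr. No WNK2 null library reached the lowest WT library of the same medium. The log2 fold change was −2.42 (SE 0.19, edgeR adjusted p = 7.91e-11) in sorbitol and −0.75 (SE 0.18, edgeR adjusted p = 0.00149) in isotonic media (−0.57 against WNK2 trans Ctr, whose replicate 3 overlapped WNK2 null Ctr). MYLIP (GRCh38, ENSG00000007944, chromosome 6, 16129125 to 16148248) encodes a ubiquitin ligase that lowers uptake of lipoprotein cholesterol. Its counts were 861, 747, 795 and 867 in WT Sor and 163, 138, 173 and 173 in WNK2 null Sor, and 710.2, 808, 809 and 643 in WT Ctr and 276, 309, 312 and 258 in WNK2 null Ctr. The log2 fold change was −2.34 (SE 0.11, edgeR adjusted p = 6.94e-15) in sorbitol and −1.36 (SE 0.11, edgeR adjusted p = 1.76e-10) in isotonic media, with no overlap in either. STARD4, which carries sterols between membranes, was lower too, with log2 fold changes of −0.68 in sorbitol and −1.22 in isotonic media (SE 0.14 in both, edgeR adjusted p = 0.000303 and 2.26e-07), and −0.71 against WNK2 trans Ctr (edgeR adjusted p = 0.000226). Against WNK2 trans Sor the sorbitol values were −2.76 for ABCA1, −2.11 for MYLIP and −1.27 for STARD4.

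In the fatty acid branch, 4 of 7 tested genes were called lower and 0 higher in each medium against the groups labelled WT, where 46.3% of all genes were called in sorbitol and 42.1% in isotonic media. SCD (GRCh38, ENSG00000099194, chromosome 10, 100347124 to 100364834), which puts the first double bond into saturated fatty acids, had 31839, 32559.6, 32015 and 29945 normalized counts in WT Sor and 7099, 6907, 6702 and 6347 in WNK2 null Sor. In isotonic media it had 28066, 26143, 29010.4 and 30466 in WT Ctr and 9697, 10914, 11505 and 10642 in WNK2 null Ctr. The groups were widely apart in both media, with −2.22 (SE 0.08, edgeR adjusted p = 9.56e-17) and −1.41 (SE 0.08, edgeR adjusted p = 8.78e-13). FADS2 (GRCh38, ENSG00000134824, chromosome 11, 61792980 to 61867354), the Δ6 desaturase of polyunsaturated fatty acids, had 6813, 7056, 7196 and 7228 in WT Sor and 1033, 1195, 919.6 and 1048 in WNK2 null Sor, and 7722, 5371, 5688 and 6790.1 in WT Ctr and 1350.2, 1478, 1478 and 1414 in WNK2 null Ctr. It had the largest fall of the list in isotonic media, −2.16 (SE 0.13, edgeR adjusted p = 8.92e-13), and a log2 fold change of −2.75 (SE 0.13, edgeR adjusted p = 6.14e-15) in sorbitol. Against WNK2 trans Ctr the isotonic values were −1.46 for MYLIP, −1.11 for SCD and −2.02 for FADS2, all called, and against WNK2 trans Sor those in sorbitol were −2.30 for SCD and −2.32 for FADS2.

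ACACA, the acetyl-CoA carboxylase that makes malonyl-CoA, had log2 fold changes of −1.04 (SE 0.12, edgeR adjusted p = 5.15e-08) in sorbitol and −0.46 (SE 0.11, edgeR adjusted p = 0.00198) in isotonic media. The 138 tested genes within 5 Mb of ACACA on chromosome 17 had median log2 fold changes of −0.40 and −0.37 in the same comparisons, so the isotonic fall of ACACA was near that of its neighbours, and the part of the chromosome region in it was not tested. FASN, which builds palmitate, was lower only in the test within sorbitol, at −0.47 (SE 0.14, edgeR adjusted p = 0.00667), and its isotonic value was 0.09 (SE 0.14, edgeR adjusted p = 0.647). The FASN call in sorbitol was lost when trends of each library with GC content and gene length were removed (−0.05, edgeR adjusted p = 0.623). The elongase ELOVL6 passed in isotonic media against WT Ctr, at −0.31 (SE 0.12, edgeR adjusted p = 0.0332), but was 0.05 against WNK2 trans Ctr. ACSS2, which activates acetate, and LPIN1, a phosphatidate phosphatase and transcriptional coregulator, did not pass in either medium against the groups labelled WT, and LPIN1 was 0.44 (SE 0.13, edgeR adjusted p = 0.00686) against WNK2 trans Ctr. In sorbitol against WNK2 trans Sor, LPIN1 was called lower at −0.56 (SE 0.13, edgeR adjusted p = 0.00116). ELOVL6 was called lower there too, at −0.45 (SE 0.12, edgeR adjusted p = 0.0034), and ACSS2 did not pass (−0.10, edgeR adjusted p = 0.377).

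Few enzymes of sterol synthesis differed between WNK2 null Sor and WT Sor. Of 17 genes tested, 2 were higher and 2 lower (23.5% called), against 46.3% of all genes. The median log2 fold change was −0.08 for the 10 from squalene onward and −0.09 for the 6 of the mevalonate pathway. NSDHL, a sterol decarboxylase encoded on the X chromosome, had 677, 615, 678 and 629 normalized counts in WT Sor and 925, 1091, 884 and 1086 in WNK2 null Sor. All WNK2 null Sor libraries were above all WT Sor libraries, a rise of 0.62 (SE 0.13, edgeR adjusted p = 0.000282). Its isotonic counts were 926, 828, 619.8 and 745 in WT Ctr and 1067, 1086, 943 and 1059 in WNK2 null Ctr, a rise of 0.41 (SE 0.13, edgeR adjusted p = 0.0104) (0.63 against WNK2 trans Ctr). Squalene epoxidase, SQLE, the first oxygen-requiring step, had 2379, 2269, 2365 and 2183 in WT Sor and 3015, 2979.7, 2926 and 3007 in WNK2 null Sor, a rise of 0.38 (SE 0.07, edgeR adjusted p = 0.000118). Neither gene passed against WNK2 trans Sor, where NSDHL was 0.29 (SE 0.13, edgeR adjusted p = 0.0849) and SQLE −0.08 (SE 0.07, edgeR adjusted p = 0.429). In isotonic media SQLE counts overlapped between WT Ctr and WNK2 null Ctr (0.09, edgeR adjusted p = 0.313). Genes within 5 Mb of SQLE had median log2 fold changes of 0.47 in sorbitol and 0.26 in isotonic media.

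TM7SF2, a sterol C14 reductase, and PMVK, phosphomevalonate kinase, were the sterol enzymes called lower in sorbitol. TM7SF2 counts were 115, 129, 112 and 114 in WT Sor and 84.7, 85.9, 61.8 and 69.2 in WNK2 null Sor, without overlap, at −0.63 (SE 0.25, edgeR adjusted p = 0.0431), a call that 12 of 34 alternative settings lost. PMVK was −0.59 (SE 0.21, edgeR adjusted p = 0.0213). Against WNK2 trans Sor, where 33.3% of all genes were called, neither passed, while 7 other sterol synthesis genes were called lower. These were HMGCS1, FDFT1, SC5D, ACAT2, MSMO1, HSD17B7 and DHCR7, with log2 fold changes from −0.74 (ACAT2) to −0.43 (SC5D). In isotonic media 29.4% of the 17 tested sterol synthesis genes were called against WT Ctr, and 42.1% of all genes. The calls were 1 higher, NSDHL, and 4 lower: ACAT2 at −0.78, MSMO1, the C4 methyl sterol oxidase, at −0.67, FDFT1 at −0.48 and farnesyl diphosphate synthase, FDPS, at −0.37 (edgeR adjusted p = 5.73e-06, 2.42e-05, 0.000211 and 0.00346). Against WNK2 trans Ctr these 4 were −0.20, 0.05, 0.08 and 0.08, none of which passed. The 7 other calls that were then higher were HMGCS1, MVK, SQLE, LSS, HSD17B7, DHCR7 and LPIN1, where 47.7% of all genes were called. PMVK was called lower there, at −0.54 (SE 0.21, edgeR adjusted p = 0.0312), and was −0.32 against WT Ctr. The direction of the isotonic difference in many sterol enzymes therefore depended on which isotonic group stood for wild-type cells. The signs of NSDHL, SQLE, LSS, IDI1, PMVK and ACAT2 did not, nor did the falls of SREBF1, SREBF2, INSIG1, the transport genes and the desaturases.

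**Figure D2:**
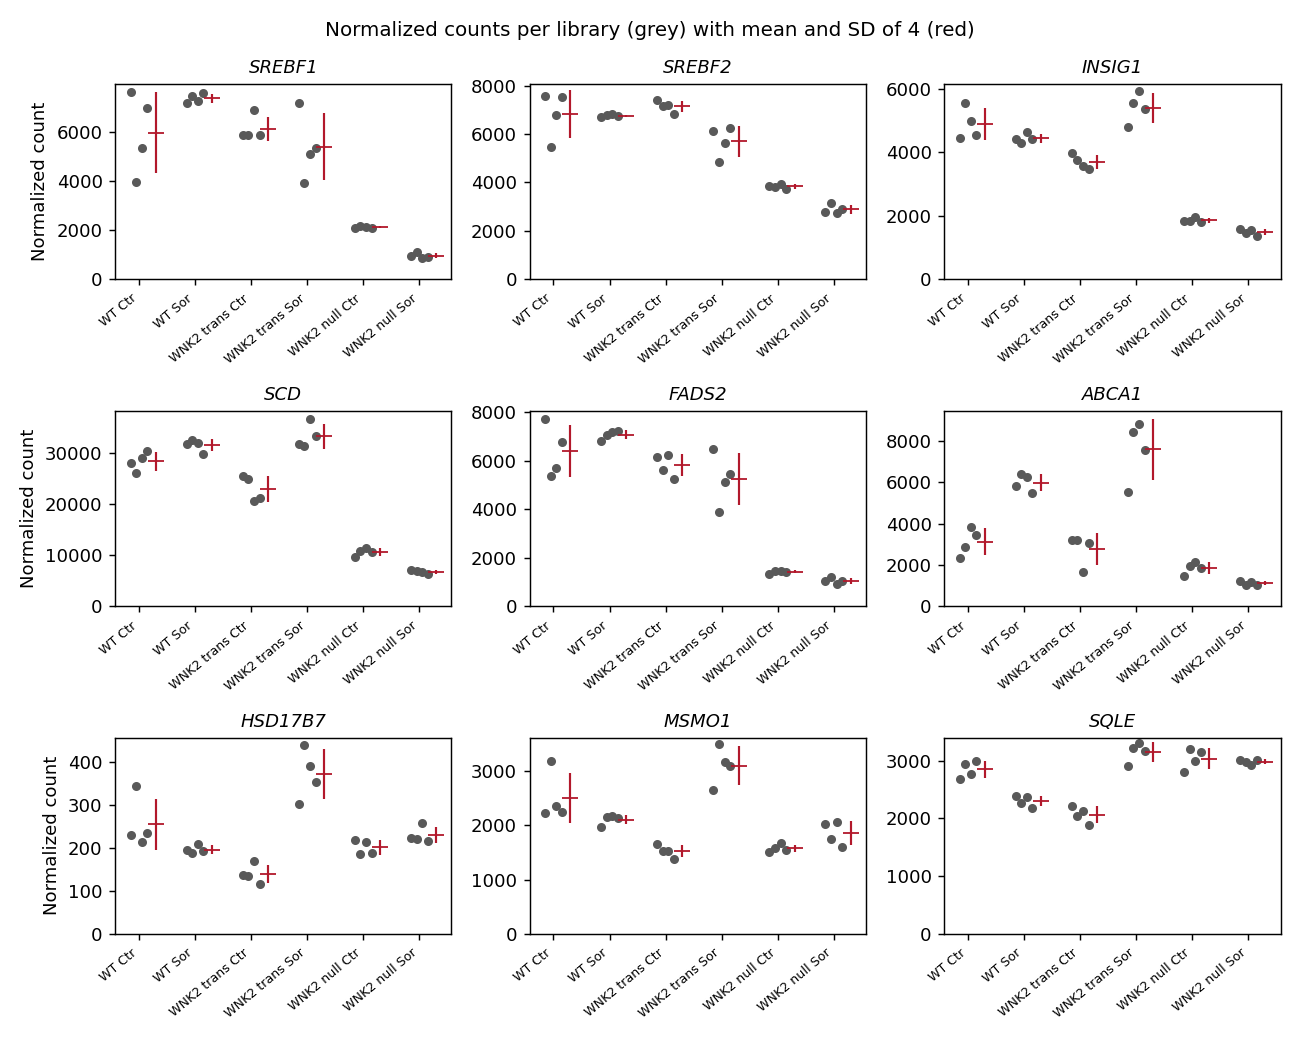
Each panel is a gene, with normalized counts on the y axis from 0, the 6 labelled groups on the x axis, grey points for the 4 libraries and a red bar for the mean and SD. SREBF1, SREBF2, INSIG1, SCD and FADS2 are lowest in both WNK2 null groups, ABCA1 is high in WT Sor and WNK2 trans Sor and lowest in WNK2 null Sor, and HSD17B7, MSMO1 and SQLE are higher in WNK2 trans Sor than in WT Sor and WNK2 trans Ctr.

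WNK2 transfection in sorbitol was compared with sorbitol alone (WNK2 trans Sor against WT Sor), where WNK2 reads were more numerous in the transfected libraries. WT Sor, however, had a lower WNK2 mean (303) than WNK2 null Sor (359) and WNK2 null Ctr (407), so its label is in doubt too. The paper reports no significant change of WNK2 reads with sorbitol or with transfection. Its own WNK2 counts are far higher in every wild-type group, transfected or not, than in WNK2 null cells. The deposited means of WT Sor (303) and WNK2 trans Ctr (252) depart from that. Those of WT Ctr (2520) and WNK2 trans Sor (3033) do not. With the labels of WT Sor and WNK2 trans Sor exchanged, every sign of this comparison would turn. Among sterol synthesis genes 7 of 17 rose and 0 fell, and SREBF1, SREBF2 and SCAP were lower by small amounts, of which SREBF1 and SCAP turned sign and SREBF2 no longer passed once trends with GC content and gene length were removed. Of 31 tested genes 14 differed, 10 higher and 4 lower, against 31.7% of all genes, which split 16.1% higher to 15.5% lower. With those trends removed the split over the list was 18 higher and 1 lower. The median log2 fold change was 0.26 over the 31 genes and 0.01 over all 16600.

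HSD17B7 (GRCh38, ENSG00000132196, chromosome 1, 162790702 to 162812817), a 3-ketosterol reductase, had 194, 186, 209 and 192 normalized counts in WT Sor and 302, 439, 390.0 and 353 in WNK2 trans Sor. All transfected libraries were above all WT Sor libraries, a log2 fold change of 0.93 (SE 0.14, edgeR adjusted p = 2.05e-05), the largest rise of the list. HMGCS1, which makes the HMG-CoA from which mevalonate derives, had 627, 624, 671 and 595 in WT Sor and 777, 1072, 1140.3 and 1061 in WNK2 trans Sor. The lowest transfected library, replicate 1, was still above WT Sor, and the log2 fold change was 0.69 (SE 0.13, edgeR adjusted p = 0.000278). The other sterol synthesis genes called were ACAT2 at 0.57, MSMO1 at 0.56, the sterol C5 desaturase SC5D at 0.48, SQLE at 0.45 and FDFT1 at 0.34, and their edgeR adjusted p ran from 2.77e-05 for SQLE to 0.00722 for FDFT1.

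Outside sterol synthesis, LPIN1 had 672, 759.8, 794 and 736 in WT Sor and 886, 1217, 1298 and 1380.0 in WNK2 trans Sor, a rise of 0.69 (SE 0.13, edgeR adjusted p = 0.000188). STARD4 had 865, 800.5, 924 and 808 in WT Sor and 995, 1450.4, 1414 and 1252 in WNK2 trans Sor, a rise of 0.59 (SE 0.14, edgeR adjusted p = 0.00235). Neither gene's groups overlapped, and the transfected libraries spread more. INSIG1 had 4790.4, 5545, 5925 and 5344 in WNK2 trans Sor, all above WT Sor, at 0.28 (SE 0.08, edgeR adjusted p = 0.00961).

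The 4 genes called lower in WNK2 trans Sor were SREBF1, FADS2, SCAP and SREBF2. FADS2 had 6508, 3886, 5148 and 5471 normalized counts in WNK2 trans Sor, all below WT Sor, at −0.43 (SE 0.12, edgeR adjusted p = 0.0086), a call lost with the GC and length trends removed (−0.17, edgeR adjusted p = 0.0837). SREBF1 had 7215, 3939, 5129 and 5378, which overlapped WT Sor through replicate 1, at −0.45 (SE 0.15, edgeR adjusted p = 0.0289). With the GC and length trends removed the SREBF1 value was 0.06 (edgeR adjusted p = 0.47), so its direction turned. SCAP had 3366, 2212, 2953 and 2917, all below WT Sor, at −0.33 (SE 0.11, edgeR adjusted p = 0.0236), and turned to 0.16 (edgeR adjusted p = 0.0537) in the same setting. SREBF2 had 6114, 4824, 5637 and 6229, all below WT Sor, at −0.25 (SE 0.09, edgeR adjusted p = 0.0399), a call lost in 11 of 33 settings, among them edgeR's RLE and upper-quartile scalings and the removal of GC and length trends (−0.02, edgeR adjusted p = 0.769). The longest transcripts of SREBF1 and SCAP have GC contents of 62.8% and 62.3%, and those of HSD17B7 and MSMO1 of 41.7% and 38.1%.

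The libraries labelled WNK2 trans Ctr and WT Ctr, where WNK2 counts went against the labels, differed in the opposite direction. In WNK2 trans Ctr 15 genes were called, 14 lower and 1 higher, against 12.5% of all genes, and sterol synthesis had 10 of 17 lower and 0 higher. The median log2 fold change was −0.30 over the list and 0.01 over all genes. The higher gene was SCAP. When the fit held the 8 libraries of these groups alone, 6 genes passed. Were the labels of these groups exchanged, every sign in this comparison would be the opposite.

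HSD17B7 had 229, 342, 212 and 235 normalized counts in WT Ctr and 137, 134, 168 and 116 in WNK2 trans Ctr, without overlap, at −0.88 (SE 0.15, edgeR adjusted p = 0.000152). MSMO1 had 2224, 3199, 2356 and 2245 in WT Ctr and 1650.3, 1534, 1537 and 1380.0 in WNK2 trans Ctr, at −0.72 (SE 0.11, edgeR adjusted p = 4.66e-05). WT Ctr replicate 2 was the highest WT Ctr library for both. DHCR7 had 4312, 2672, 3006 and 4265 in WT Ctr and 2420.1, 2143, 2562 and 2145 in WNK2 trans Ctr, at −0.62 (SE 0.14, edgeR adjusted p = 0.00321). ACAT2 had 1668, 2110.3, 1614 and 1466 and 1103, 1058, 1399 and 1036, at −0.58 (SE 0.11, edgeR adjusted p = 0.000962). For these genes every library labelled WNK2 trans Ctr lay below every library labelled WT Ctr. SCAP had 4475, 4147, 4701 and 4224 in WNK2 trans Ctr, all above WT Ctr, at 0.36 (SE 0.11, edgeR adjusted p = 0.0345), a call lost in 7 of 33 settings. The remaining calls, all lower, were HMGCS1, MVK, FDPS, FDFT1, SQLE, LSS, INSIG1, STARD4, ELOVL6 and SCD, with log2 fold changes from −0.56 (FDFT1) to −0.30 (SCD), and those of LSS and ELOVL6 were lost in most settings.

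**Figure D3:**
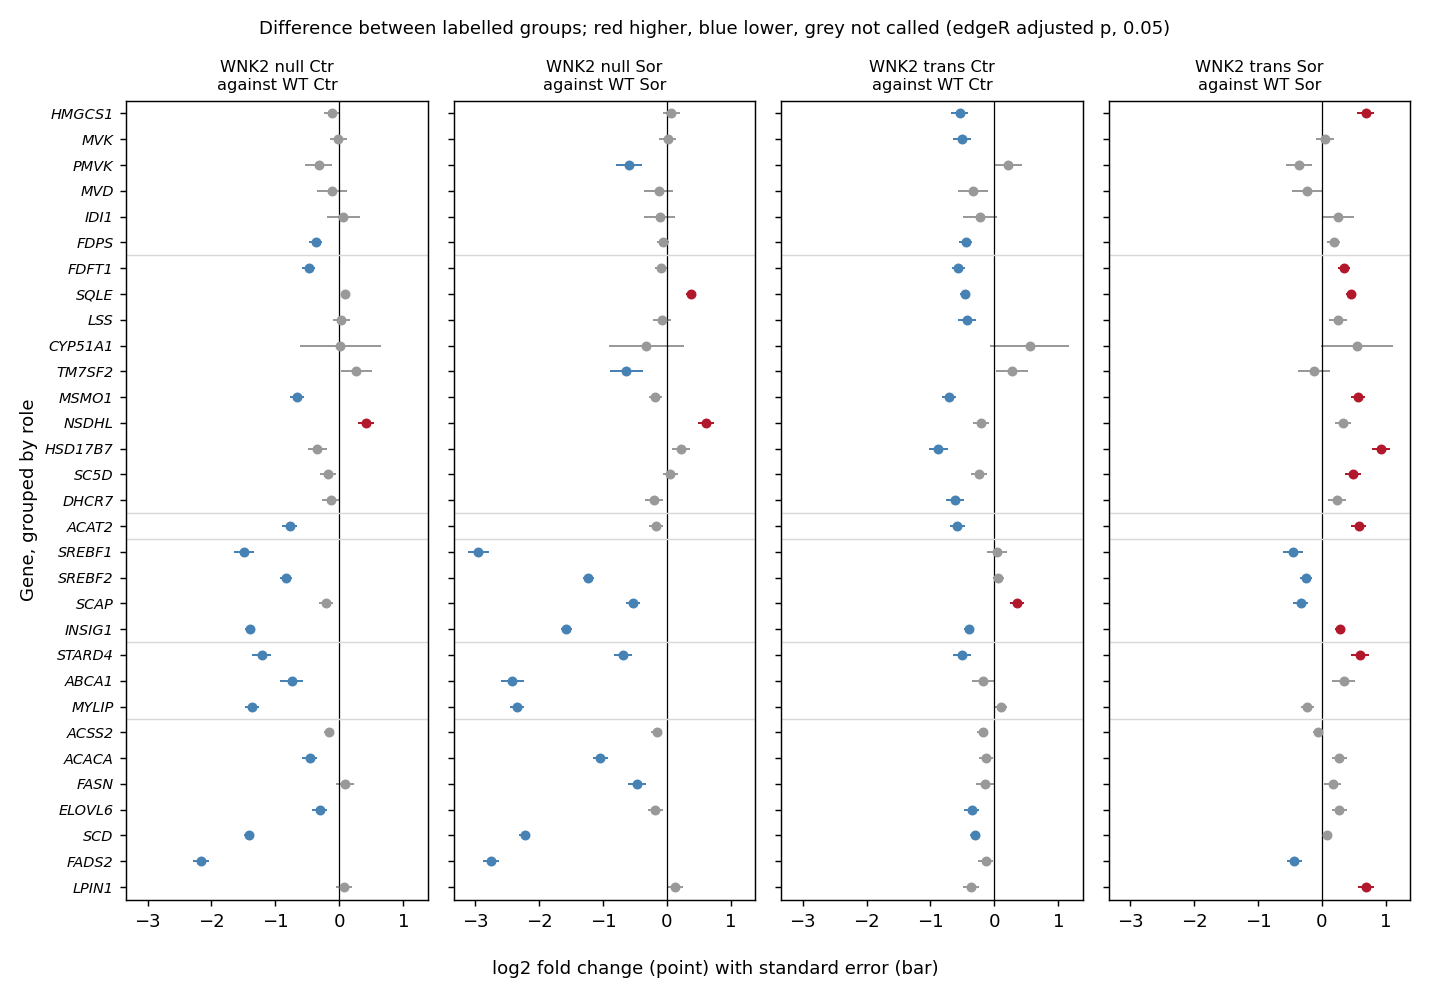
Panels show 4 comparisons with WT groups, rows are the 31 tested genes by role, points are log2 fold changes and bars their standard errors, with called genes in red (higher) or blue (lower) at an edgeR adjusted p of 0.05. In the WNK2 null panels the blue points far from 0 are the SREBP, transport and desaturase genes, and in the WNK2 trans panels the sterol synthesis genes lie mostly left of 0 in isotonic media and mostly right of 0 in sorbitol.

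The response to sorbitol was measured in 3 backgrounds. These comparisons share libraries with those above, so their values are set side by side and not compared as independent results. In WT cells, against WT Ctr, 6 genes were called, 5 lower and 1 higher, against 24.1% of all genes. Against the libraries labelled WNK2 trans Ctr 8 were called, all higher, against 15.1% of all genes. ABCA1 was the gene that both had in common. With GC and length trends removed, 16 were called against WT Ctr, 1 higher and 15 lower, where the median of all genes was −0.09.

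ABCA1 rose in WT Sor by 0.94 (SE 0.18, edgeR adjusted p = 0.000453) against WT Ctr and by 1.11 (SE 0.18, edgeR adjusted p = 8.55e-05) against WNK2 trans Ctr. Its lowest WT Sor library was above the highest library of both isotonic groups. The 5 genes called lower against WT Ctr were HMGCS1, ACAT2, ELOVL6, FDFT1 and SQLE. HMGCS1 had 674, 818, 1056 and 925 normalized counts in WT Ctr and 627, 624, 671 and 595 in WT Sor, at −0.47 (SE 0.13, edgeR adjusted p = 0.0119), and the closest libraries differed by little. ACAT2 had 1176, 1271, 1224 and 1293 in WT Sor, all below WT Ctr, at −0.47 (SE 0.11, edgeR adjusted p = 0.00417). FDFT1 had 5682, 7412, 5296 and 4735 in WT Ctr and 4402, 4475, 4492 and 4582 in WT Sor, at −0.37 (SE 0.09, edgeR adjusted p = 0.00651), and ELOVL6 had 285, 413, 339.7 and 323 and 275, 265, 239 and 252, at −0.40 (SE 0.12, edgeR adjusted p = 0.0141). SQLE was −0.31 (SE 0.07, edgeR adjusted p = 0.00276).

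Set against WNK2 trans Ctr, with 719, 639.9, 457 and 569.9 counts, HMGCS1 was 0.08 (SE 0.13, edgeR adjusted p = 0.764), and SQLE, ACAT2 and FDFT1 were 0.15, 0.11 and 0.20, all of opposite sign to the values against WT Ctr and none past the threshold. ELOVL6 was −0.04. The genes called higher were then ABCA1, DHCR7 at 0.61, LSS, lanosterol synthase, at 0.60, HSD17B7 at 0.50, LPIN1 at 0.47, MSMO1 at 0.47, SCD at 0.45 and INSIG1 at 0.26. The direction of many sterol enzymes in WT Sor thus rested on which isotonic libraries were taken as control.

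**Figure D4:**
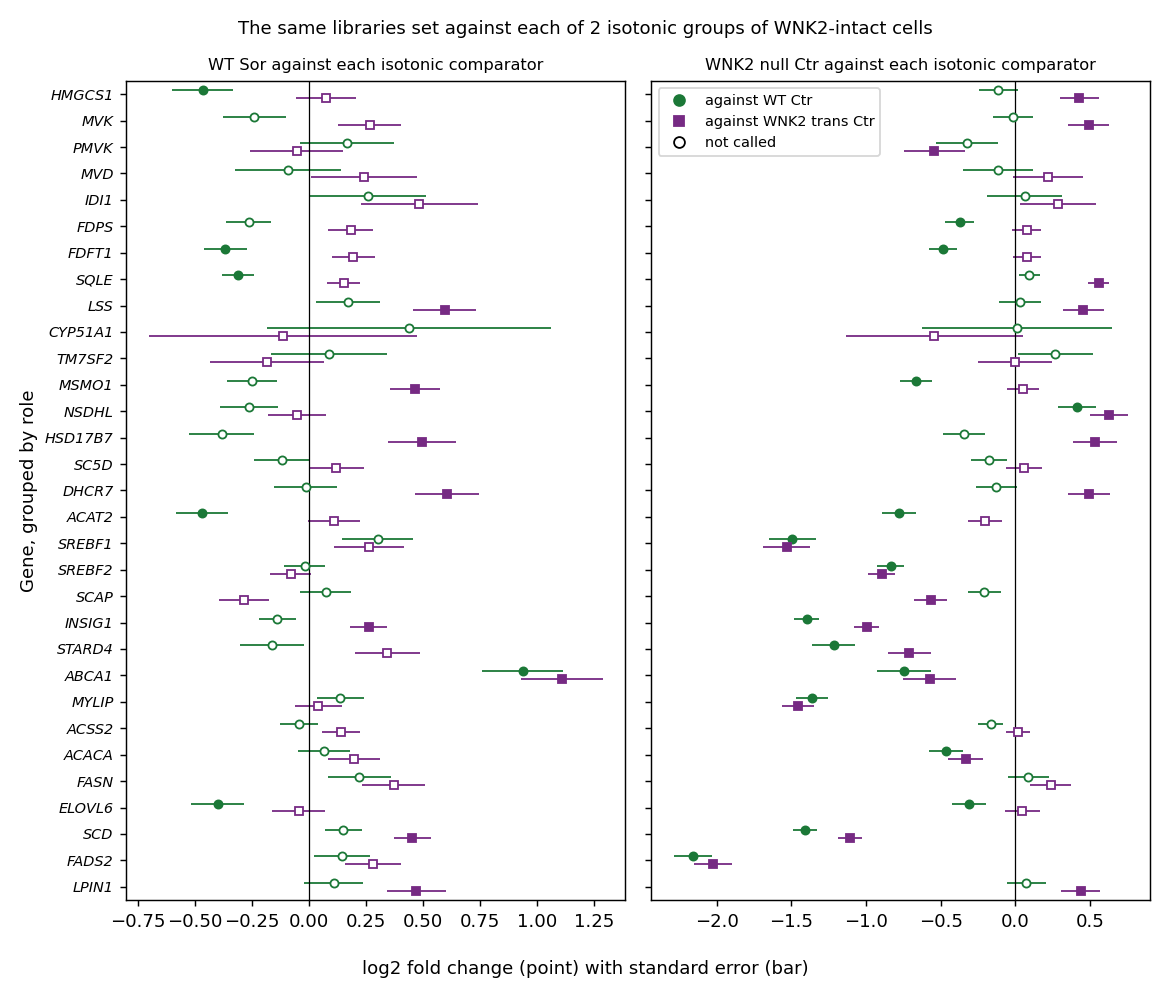
Left, WT Sor, and right, WNK2 null Ctr, each set against the libraries labelled WT Ctr (green circles) and WNK2 trans Ctr (purple squares), with log2 fold change on the x axis, bars for the standard error, rows for the 31 tested genes and open symbols for genes not called. Most sterol synthesis genes shift to the right in both panels when WNK2 trans Ctr is the comparator, while SREBF1, SREBF2, INSIG1, MYLIP, SCD and FADS2 stay below 0 in WNK2 null Ctr.

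In WNK2 null cells sorbitol lowered 9 of the 31 genes and raised 0, against 14.9% of all genes (8.25% higher and 6.64% lower). The groups compared here hold no library labelled WT or WNK2 trans, although the filter, the scaling and the estimate of spread drew on all 24 libraries. The 9 were SREBF1, SREBF2, INSIG1, ABCA1, MYLIP, TM7SF2, ACACA, SCD and FADS2. SREBF1 went from 2124 ± 42.9 to 954 ± 107 normalized counts (SD, n = 4), a log2 fold change of −1.15 (SE 0.16, edgeR adjusted p = 8.87e-06). MYLIP went from 289 ± 26.2 to 161 ± 16.7, at −0.84 (SE 0.11, edgeR adjusted p = 4.72e-06), and ABCA1 from 1858 ± 293 to 1120.3 ± 105, at −0.73 (SE 0.18, edgeR adjusted p = 0.00581). TM7SF2 had 160.1, 119, 138 and 116 in WNK2 null Ctr and 84.7, 85.9, 61.8 and 69.2 in WNK2 null Sor, at −0.81 (SE 0.25, edgeR adjusted p = 0.0276). None of these 4 genes overlapped between the media. SCD was lower at −0.66 (SE 0.08, edgeR adjusted p = 1.91e-06), and STARD4, at 0.37 (SE 0.14, edgeR adjusted p = 0.0856), did not pass although its libraries did not overlap. Among the 17 sterol synthesis genes TM7SF2 was the 1 called (5.88%, against 14.9% of all genes). When the fit held these 8 libraries alone, 15 genes passed, 13 lower and 2 higher.

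In WNK2-transfected cells sorbitol came with 20 calls, 18 higher and 2 lower, against 48% of all genes (24.3% higher and 23.7% lower). The median over the list was 0.53 and over all genes 0.01. Sterol synthesis had 11 of 17 higher and 0 lower, and the fatty acid branch had 4 of 7 higher. Set against the libraries labelled WT Ctr, 11 genes were called, 10 higher and 1 lower, against 39.2% of all genes, and all 11 had been called in the same direction against WNK2 trans Ctr.

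ABCA1 had 3209.8, 3185, 1636 and 3039 normalized counts in WNK2 trans Ctr and 5528, 8414, 8818 and 7532 in WNK2 trans Sor, at 1.45 (SE 0.18, edgeR adjusted p = 3.6e-07). HSD17B7 rose from 138 ± 21.4 to 371 ± 57.8 (SD, n = 4), at 1.42 (SE 0.15, edgeR adjusted p = 1.61e-08). LPIN1 had 645, 593, 433 and 463 in WNK2 trans Ctr, all below WNK2 trans Sor, at 1.16 (SE 0.13, edgeR adjusted p = 6.18e-08), and MSMO1 had 2651, 3513, 3178 and 3098 in WNK2 trans Sor, all above WNK2 trans Ctr, at 1.03 (SE 0.11, edgeR adjusted p = 3.12e-08). Against WT Ctr the same genes were 1.28, 0.54, 0.80 and 0.31, and still passed. SCAP and SREBF2 were lower, at −0.62 (SE 0.11, edgeR adjusted p = 6.61e-05) and −0.32 (SE 0.09, edgeR adjusted p = 0.00455), without overlap, and against WT Ctr SREBF2 passed (−0.26) and SCAP did not (−0.26, edgeR adjusted p = 0.0657). FDFT1 and FDPS, called higher against WNK2 trans Ctr at 0.54 and 0.37, were −0.02 and −0.08 against WT Ctr. IDI1, the low-count isomerase, was 0.74 (SE 0.25, edgeR adjusted p = 0.0178), and its libraries overlapped.

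Whether the sorbitol response differed between backgrounds was tested as an interaction. Between WNK2 null and WT cells 8 genes passed, 6 more negative in WNK2 null cells and 2 more positive, against 8.65% of all genes. The 6 were ABCA1 at −1.67 (SE 0.25, edgeR adjusted p = 0.000107), SREBF1 at −1.46 (SE 0.22, edgeR adjusted p = 0.000105), MYLIP at −0.98 (SE 0.15, edgeR adjusted p = 0.000129), SCD at −0.81 (SE 0.11, edgeR adjusted p = 4.18e-05), FADS2 at −0.59 and ACACA at −0.57. The 2 were ACAT2 at 0.61 and MSMO1 at 0.49. The call of MSMO1 was lost in 20 of 34 settings and that of FADS2 in 12, and with GC and length trends removed MSMO1 was 0.30 (edgeR adjusted p = 0.0544) and FADS2 −0.26 (edgeR adjusted p = 0.104). ACACA and ACAT2 were lost in 4 settings each. The number was 4 without WT Ctr replicate 2 or without WNK2 null Sor replicate 3, 5 without WT Sor replicate 2, WNK2 null Ctr replicate 3 or WNK2 null Ctr replicate 4, and 13 with DESeq2 (8 more negative, 5 more positive), while removal of GC and length trends gave 10 (6 and 4). With WNK2 trans Ctr as the isotonic wild-type group 9 passed, all more negative, against 3.39% of all genes: the same 6 with −1.84 for ABCA1 and −1.42 for SREBF1, joined by DHCR7, INSIG1 and FASN, while ACAT2 and MSMO1 stood at 0.03 and −0.23. WT Sor was the wild-type group in sorbitol each time, and the interaction with WNK2 trans Sor in its place was not tested.

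Between transfected and untransfected cells 18 genes passed, 17 more positive with WNK2 transfection and 1, SCAP, more negative, against 35.5% of all genes. HSD17B7 at 1.80 (SE 0.21, edgeR adjusted p = 1.83e-07), MSMO1 at 1.28 (SE 0.15, edgeR adjusted p = 4.55e-07) and HMGCS1 at 1.23 (SE 0.19, edgeR adjusted p = 1.24e-05) had the largest values. This count depended on the labels of the isotonic libraries. When WT Ctr and WNK2 trans Ctr were exchanged, edgeR called 0 of the 31 genes, against 5.46% of all genes, with MVK, ACSS2 and FADS2 at an unadjusted p under 0.05 and FADS2 called by DESeq2. HSD17B7 was then 0.05 (SE 0.21, edgeR adjusted p = 0.936), MSMO1 −0.16 (SE 0.15, edgeR adjusted p = 0.65) and HMGCS1 0.14 (SE 0.19, edgeR adjusted p = 0.738). This exchange was added after the data were seen.

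Beyond these genes, 37 of 41 further genes of sterol and fatty acid handling passed the filter on low counts. In WNK2 null against WT, 23 were called in sorbitol (8 higher, 15 lower), against 46.3% of all genes, and 26 in isotonic media (8 higher, 18 lower), against 42.1%. Against the transfected groups 18 were called in sorbitol (6 higher, 12 lower), against 33.3%, and 25 in isotonic media (8 higher, 17 lower), against 47.7%. ABCG1, the cholesterol exporter that is another LXR target, had 2418, 2483, 2679.6 and 2690.2 normalized counts in WT Sor and 148, 145, 126 and 131 in WNK2 null Sor, at −4.22 (SE 0.11, edgeR adjusted p = 7.57e-20). CH25H, which makes 25-hydroxycholesterol, had 31.6, 31.1, 24.4 and 28.6 in WT Sor and 2.05, 2.50, 2.90 and 2.80 in WNK2 null Sor, where few reads lie behind each value, and ABCG4, an exporter related to ABCG1, was −1.59 (SE 0.27, edgeR adjusted p = 2.56e-05). All 3 were lower in each WNK2 null library than in any library of WT Sor. Against WNK2 trans Sor ABCG1 and CH25H were called, at −3.70 and −4.29, and ABCG4 was not (−0.55, edgeR adjusted p = 0.131). In isotonic media the same 3 genes changed most, with ABCG1 at −2.41, CH25H at −5.53 and ABCG4 at −1.23, where CH25H had 0 to 1.82 normalized counts in WNK2 null Ctr and the fitted value is no bound. Against WNK2 trans Ctr all 3 were called, at −2.01, −4.76 and −1.43.

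In WNK2 trans Sor against WT Sor 17 of the 37 were called, 7 higher and 10 lower, against 31.7% of all genes, with ABCG4 at −1.04, the lysosomal cholesterol exporter NPC1 at 0.92 and the LXR partner RXRA at −0.88. In WNK2 trans Ctr against WT Ctr 7 were called, against 12.5%, with the acyl-CoA synthetase ACSL1 at −0.80, RXRA at 0.48 and malic enzyme, ME1, at −0.46, all of which would turn sign with the labels exchanged. Sorbitol gave 12 calls in WT cells against WT Ctr, where 24.1% of all genes were called, with ABCG1 at 1.92, CH25H at −0.98 and the phosphatidate phosphatase LPIN3 at 0.94. Against WNK2 trans Ctr it gave 10 (15.1% of all genes), and of these 3 genes ABCG1 passed (2.32) while CH25H (−0.20, edgeR adjusted p = 0.708) and LPIN3 (0.58, edgeR adjusted p = 0.194) did not. In WNK2 null cells 9 were called (14.9% of all genes), with NPC1 at 1.25, ME1 at 1.15 and LPIN2, of the same family as LPIN3, at 0.51. In transfected cells 25 were called (48% of all genes), with ME1 at 1.97, ABCG1 at 1.80 and NPC1 at 1.58, and 20 against WT Ctr (39.2%), where these 3 genes were called at 1.51, 1.40 and 1.39. ABCG1 was 0.11 (SE 0.11, edgeR adjusted p = 0.558) with sorbitol in WNK2 null cells, and the interaction of genotype and sorbitol was −1.81 (SE 0.15, edgeR adjusted p = 9.35e-09) for ABCG1, 0.78 for NPC1 and 0.60 for the elongase ELOVL1. With WNK2 trans Ctr as the isotonic wild-type group the interaction passed for ABCG1 (−2.21) and not for NPC1 (0.58, edgeR adjusted p = 0.0529) or ELOVL1 (0.33, edgeR adjusted p = 0.201). NPC1 counts were higher in sorbitol in all 3 backgrounds without overlap, with 1844 ± 271 and 2557 ± 80.5 normalized counts in WT Ctr and WT Sor, 2166 ± 212 and 5151 ± 121 in WNK2 null Ctr and WNK2 null Sor, and 1613 ± 259 and 4825 ± 797 in WNK2 trans Ctr and WNK2 trans Sor (SD, n = 4 each).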

How the data were processed

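RNA of T/C-28a2 cells was sequenced in 24 libraries, 4 in each of 6 groups, which the study describes as biological replicates. The deposited tables hold counts of reads per Ensembl gene, which the authors made with HTSeq and did not normalize. The submitters' processing notes name FastQC 0.11.9, HISAT2 2.2.1, HTSeq 2.0.2, DESeq2 1.38.3 and GRCh38, without parameters, and the strand setting and annotation are not given in the sources used here. Reads that cannot be assigned to 1 gene are usually lost in such counting, which can lower genes that overlap others.

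All 24 tables were joined (62703 identifiers, of which 42300 matched a symbol and 58279 a GENCODE 29 position). Low genes were removed by filterByExpr of edgeR. It kept genes that reached about 10 counts, scaled to library size, in at least 4 libraries, the size of a group, and 15 counts in total. TMM factors scaled the libraries, which were fitted in 1 quasi-likelihood model over the 6 groups (R 4.3.3, edgeR 4.0.16, limma 3.58.1). P-values were two-sided and adjusted by Benjamini-Hochberg over all 16600 genes, at a threshold of 0.05. The script was tested on simulated data. A normalized count is a count brought to the mean library size after TMM scaling. A group did not overlap another when its lowest value lay above the other's highest.

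The genes and lists were chosen with earlier results of these data known. By rule, values in every library were given for the called genes with the largest changes, up to 4 in each direction per comparison, and for SREBF1, SREBF2, SCAP and INSIG1, and up to 3 genes per comparison were named of the further sterol and fatty acid genes. Values of other genes were added after they were seen. Alternatives were other scalings (RLE, upper quartile), DESeq2 1.42.0, other filters, thinned counts, GC and length offsets, a fit of the groups compared alone, a replicate block, exchange of WT Ctr and WNK2 trans Ctr, and each library left out. The exchange in the interaction of transfection and sorbitol, and WNK2 trans Sor in place of WT Sor as the comparator of WNK2 null Sor, were added after seeing the data. Total counts ranged from 14153002 to 25664619.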

Additional observations from a re-analysis of the deposited data

Results flagged for a closer look

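A library lay far from its group by Dixon's test in 9 of 186 groups of 4 libraries tested over the 31 genes, and chance gives about 1 in 20. Of these, 3 lay in WNK2 trans Ctr replicate 3: TM7SF2 at 201 normalized counts (other libraries 108 to 115), SREBF1 at 6892 normalized counts (other libraries 5881 to 5909), and ABCA1 at 1636 normalized counts (other libraries 3039 to 3209.8). WNK2 null Ctr replicate 3 gave INSIG1 at 1965 normalized counts (other libraries 1803 to 1819.6), and LPIN1 at 815 normalized counts (other libraries 679 to 702). The other 4 were MSMO1 in WT Ctr replicate 2 at 3199 normalized counts (other libraries 2224 to 2356), HSD17B7 in WNK2 null Sor replicate 3 at 256 normalized counts (other libraries 216 to 221), ACACA in WNK2 trans Sor replicate 1 at 4201 normalized counts (other libraries 5673 to 5933), and FASN in WNK2 trans Sor replicate 2 at 12396 normalized counts (other libraries 19179.9 to 19697).

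The response to sorbitol differed between WNK2 null and WT cells in 8 genes by the interaction term of the edgeR fit. On the log2 scale, with negative values for a lower response in WNK2 null cells, the terms were ABCA1 (−1.67), SREBF1 (−1.46), MYLIP (−0.98), SCD (−0.81), FADS2 (−0.59) and ACACA (−0.57), and above 0 ACAT2 (0.61) and MSMO1 (0.49). The 6 negative terms were called with either isotonic wild-type group. The positive terms were not called with WNK2 trans Ctr in place of WT Ctr. WT Sor, whose label is in doubt, was kept in both. The call of FADS2 was lost in 12 of 34 settings and that of ACACA in 4.

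Between transfected and untransfected cells the response differed in 18 genes: HSD17B7 (1.80), MSMO1 (1.28), HMGCS1 (1.23), ACAT2 (1.15), STARD4 (1.097), LPIN1 (1.05), SQLE (0.92), FDFT1 (0.91), DHCR7 (0.85), SC5D (0.72), INSIG1 (0.68), LSS (0.68), FDPS (0.63), ELOVL6 (0.63), MVK (0.56), NSDHL (0.54) and SCD (0.38), and, in the other direction, SCAP (−0.69). With WT Ctr and WNK2 trans Ctr exchanged, 0 of the 31 genes were called.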

How the results depend on the processing

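Over 34 settings, 10 of the fit and 24 that each left out a library, 88 of 120 calls of single genes were kept in every setting that left the comparators as labelled. Counts of called genes that moved by over 1.5 times were 16 for WT Sor against WT Ctr with GC and length offsets (1 higher and 15 lower), 6 for WNK2 trans Ctr against WT Ctr and 15 for WNK2 null Sor against WNK2 null Ctr with only the groups compared, 13 for the genotype interaction with DESeq2, and, with the comparator exchanged, 11 for WNK2 trans Sor against WNK2 trans Ctr and 0 for the transfection interaction. GC and length offsets also moved the split of WNK2 trans Sor against WT Sor to 18 higher and 1 lower and that of the genotype interaction to 4 and 6. Leaving out each library gave 5 to 8 calls for WT Sor against WT Ctr, 14 to 16 for WNK2 null Ctr, 10 to 16 for WNK2 trans Ctr, 13 to 15 for WNK2 null Sor and 12 to 17 for WNK2 trans Sor against WT cells in like media, 7 to 10 and 19 to 24 for sorbitol in WNK2 null and transfected cells, 4 to 11 for the genotype interaction and 17 to 22 for the transfection interaction. With the comparator exchanged, log2 values turned sign for WT Sor in FDFT1 (0.20), SQLE (0.15), HMGCS1 (0.077) and ACAT2 (0.11), for WNK2 null Ctr in MSMO1 (0.050), FDFT1 (0.079), FDPS (0.076) and ELOVL6 (0.047), for WNK2 null Sor (WNK2 trans Sor in place of WT Sor) in SQLE (−0.078), for WNK2 trans Sor in FDFT1 (−0.021) and FDPS (−0.079), for the genotype interaction in MSMO1 (−0.23) and for the transfection interaction in MSMO1 (−0.16), FDFT1 (−0.22), SCD (−0.22), SQLE (−0.0099), MVK (−0.46), SCAP (0.023), ACAT2 (−0.0042), LSS (−0.17), FDPS (−0.26), ELOVL6 (−0.082), DHCR7 (−0.39) and INSIG1 (−0.12). With GC and length offsets SREBF1 (0.058) and SCAP (0.16) turned in WNK2 trans Sor against WT Sor and SCAP (0.066) in the transfection interaction. The cause was not tested. Replicate numbers did not pair the libraries (28 correlations of same-numbered libraries from −0.52 to 0.43, 7 over 0.1, 8 highest with the own number), and with a replicate block the counts stayed at 6, 15, 15, 15, 14, 9, 20, 8 and 18. Low counts limited CYP51A1 and IDI1.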
